A study of Mus musculus with 4 samples.

Results

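The 10 genes studied here belong to the small leucine-rich proteoglycan family and were followed through the developing lower jaw and tongue of the mouse. They are Dcn, Bgn, Aspn, Ogn, Epyc, Lum, Kera, Omd, Prelp and Fmod, and they were chosen by name, as every non-control probe on the arrays whose gene name was one of them. This gave 14 probes for 10 genes, out of 56601 probes and 27190 genes in all. Bgn and Prelp had 3 probes each and the other 8 genes had 1 each. Of the 14 probes, 12 gave a signal well above background in at least 1 tissue, and every one of the 10 genes had such a probe.

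Small leucine-rich proteoglycans are secreted proteins whose curved core of leucine-rich repeats binds collagen. Most of them carry chains of chondroitin or dermatan sulfate, or of keratan sulfate, and they are known for setting the width and spacing of collagen fibrils. Several also bind growth factors of the TGF-beta family in the matrix. In the tongue and jaw they are best known from connective tissue, tendon, bone and the dental tissues.

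RNA came from ICR mouse embryos, with no treatment or engineered allele in any group, and its Cy3-labelled copy was read on Agilent arrays of 1 colour. The 4 tissues were the medial part of the mandibular arch at E9.5 (MMA, 12 embryos), the lateral lingual swellings (LLS) and the lateral part of the mandibular arch (LMA), both at E11.5 and each from 4 embryos, and, from 4 embryos at E14.5, median tongue (T). Each tissue was pooled in 1 tube and measured on 1 array, so there was no replicate, no test could be made, and a difference between tissues cannot be told apart from a difference between pools or between litters. The purpose given for the series was to find genes specific to a region or stage.

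On each array 59305 spots were not controls, between 57.0% and 62.9% of them were well above background, and 0 were saturated. The extraction text in the labels mentions cerebellum, and of 4 cerebellar markers, Gabra6 and Calb1 were not well above background in any tissue, while Pcp2 and Zic1 were so in all 4. Muscle markers moved strongly between the tissues: the summed scaled signal of 6 such genes stood at 0.777 for MMA, 6.23 for LLS, 20.9 for LMA and 330 for T, with 2, 5, 5 and 6 genes detected above background. The 7 mesenchyme markers, all well above background in every tissue, summed to 52.5, 136, 187 and 212 in MMA, LLS, LMA and T. The part of cell composition in the results below was not tested, and in such bulk samples fewer cells of a type and less RNA per cell cannot be told apart.

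Signals below are the processed signals of the scanner software. Differences are of log2 signal after each array was scaled to its 75th percentile, a signal between 422 and 507. The error after each measured difference is that of the scanner software for the 2 spots, and it covers spots only, not animals. Where 1 tissue of a pair gave no signal well above background, the difference is a bound, computed from the lowest signal well above background on the dim array, and is written "at least". A gene was counted as different when it was at least 2-fold higher or lower. Medians take each bound at its size. As an alternative, a background correction called normexp was used, with an offset of 50 added to each signal. Such an offset shrinks differences between low signals, so smaller values of dim genes under normexp are partly built in.

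Most genes of the family were brighter in the E14.5 tongue than in every earlier tissue. Against LLS, the E11.5 tissue from which much of the tongue grows, 7 of 10 members passed 2-fold upward in T and 0 downward. Among all genes compared, 12.8% were at least 2-fold higher and 6.03% lower. The median member difference, with bounds taken at their size, was 3.04, against -0.07 over all genes compared. Over the 7 members measured in both tissues it was 2.49, against -0.10 over all genes so measured. Of the 3 members that did not pass 2-fold, Bgn and Fmod were measured within 2-fold of LLS, and Epyc had a bound that leaves its size unknown. This reading of Bgn is by its brightest probe. By its RefSeq probe Bgn was 2.59-fold higher in T, and with RefSeq probes preferred the count of members higher was 8.

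The 6 members Dcn, Aspn, Lum, Kera, Prelp and Ogn exceeded 2-fold in T over each of the 3 earlier tissues, as did 9.06% of all genes. Against LMA the counts were 6 higher and 0 lower of 9 compared, beside 14.1% and 7.26% of all genes. Against MMA they were 7 higher and 0 lower of 9 compared, beside 18.3% and 13.8%. These comparisons share the T array.

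**Figure D1:**
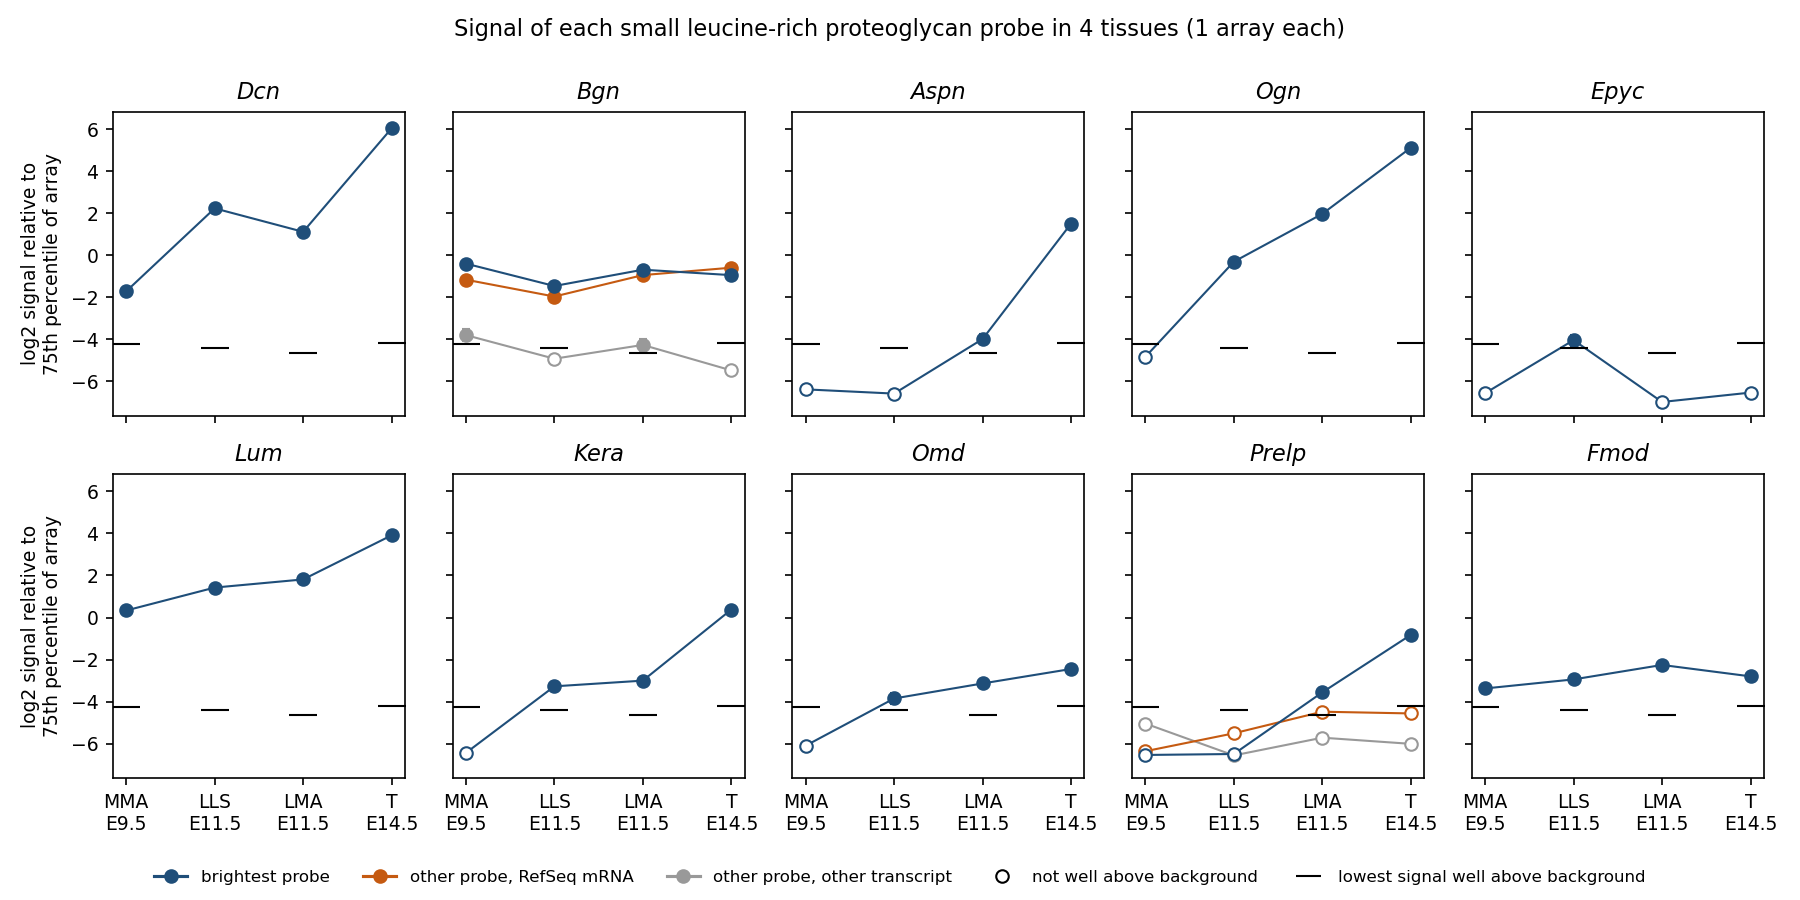
Scaled log2 signal (y axis) of every probe of the 10 genes in the 4 tissues (x axis, 1 array each), with the scanner software's error, mostly smaller than the point. Open points are not well above background and black dashes mark the lowest signal well above background on each array. Dcn, Ogn, Aspn, Lum, Kera and the brightest Prelp probe are highest in T by at least 2-fold. Fmod is highest in LMA, by less than 2-fold over T and LLS, and the Bgn probes differ in their highest tissue.

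Dcn encodes decorin, the founding member of the family, which binds collagen and TGF-beta. MMA gave a signal of 128, LLS 2134, LMA 1094 and T 32118. The 4 tissues were all separated by more than 2 errors, in the order T, LLS, LMA, MMA. Dcn was 14.0-fold higher in T than in LLS, a log2 difference of 3.81 ± 0.20. T was 30.3-fold above LMA (4.92 ± 0.20). Against MMA the difference was 7.75 ± 0.21, or 216-fold, rank 13 from the highest of 15055 genes measured in both tissues, and 7.11 under a background correction by normexp. The Dcn value rests on 1 probe, shown here, as are the 2 brighter Bgn probes, because the Bgn values depend on which probe is read. The positions are those of the array design on mm9.
Dcn probe, chr10:96980233-96980292, plus strand: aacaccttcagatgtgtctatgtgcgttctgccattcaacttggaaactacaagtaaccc
Bgn RefSeq probe, chrX:70738554-70738613, plus strand: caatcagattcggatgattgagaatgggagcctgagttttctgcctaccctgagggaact
Bgn probe of another transcript, chrX:70731578-70731637, plus strand: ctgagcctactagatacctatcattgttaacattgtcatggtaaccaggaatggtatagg

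Bgn encodes biglycan, the closest relative of decorin, and it behaved differently. Its brightest probe read 319 for MMA, 165 for LLS, 314 for LMA and 254 for T. That probe belongs to a transcript outside RefSeq and lies 6976 bases before the RefSeq probe. The RefSeq probe read 188 for MMA, 116 for LLS, 263 for LMA and 324 for T. Both were lowest in LLS.

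Against LLS, Bgn in T was 0.52 ± 0.21 higher by the brightest probe and 1.37 ± 0.21, or 2.59-fold, higher by the RefSeq probe. Against MMA the probes disagreed in sign, with T lower by -0.55 ± 0.21 on the brightest probe and higher by 0.57 ± 0.21 on the RefSeq probe. Against LMA both differences, -0.26 and 0.35, were within 2 errors of 0. The third Bgn probe, 1529 bases before the RefSeq probe, was well above background only in MMA and LMA, at 30.2 and 26.2. So no direction is given for Bgn in T against MMA or LMA, and by neither of the brighter probes did it come near the size of the Dcn change.

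Aspn encodes asporin, a decorin-like protein without the usual sugar chain attachment site and a regulator of TGF-beta and BMP signals. It was not well above background in MMA (5.05) or LLS (4.74), gave 31.9 in LMA and reached 1387 in T. T was 45.0-fold higher than LMA, a log2 difference of 5.49 ± 0.29 with rank 50 of 15854 genes. Against LLS and MMA the T signal was at least 60.4-fold and at least 53.7-fold higher. Under normexp, another background correction, the T differences of Aspn were smaller, 3.95 from LLS, 3.87 from LMA and 3.85 from MMA. Aspn was dim or near the limit of detection before E14.5 and clearly present in T.

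Ogn encodes osteoglycin, also called mimecan, a keratan sulfate carrier of the matrix in eye, bone and vessel wall. MMA was dim at 14.7, and the signal was 367 for LLS, 1978 for LMA and 16960 for T. T stood 42.9-fold above LLS (5.42 ± 0.20), rank 37 of 15641 genes. T was 8.86-fold above LMA (3.15 ± 0.20) and at least 657-fold above MMA (9.36), a value of 7.53 under normexp. The 3 later tissues did not overlap within their errors.

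Epyc encodes epiphycan, a dermatan sulfate proteoglycan of growing cartilage. It was well above background only in LLS, at 27.7, where the lowest such signal was 21.3, and read 4.44 for MMA, 4.00 for LMA and 5.28 for T. No tissue gave it a clear signal. T against LLS had a bound of -0.16, that is, at least 1.12-fold lower in T. Summed signals of 6 cartilage markers were 18.6 for MMA, 15.4 for LLS, 16.8 for LMA and 2.49 for T.

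Lum encodes lumican, the keratan sulfate proteoglycan of cornea and skin that keeps fibrils narrow. MMA gave 532, LLS 1223, LMA 1779 and T 7374. T was 5.60-fold above LLS (2.49 ± 0.20), 4.28-fold above LMA (2.10 ± 0.20) and 11.9-fold above MMA (3.58 ± 0.20). LLS and LMA did not differ by more than 2 errors. Lum was the only member besides Dcn, Bgn and Fmod to be well above background already in MMA.

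Kera encodes keratocan, best known from the cornea. It was dim in MMA (4.85) and gave 47.1 in LLS, 63.2 in LMA and 638 in T. T was 12.6-fold above LLS (3.65 ± 0.25) and 10.4-fold above LMA (3.38 ± 0.23), and at least 24.7-fold above MMA. LLS and LMA differed by less than 2 errors. Under normexp the differences of Kera from LLS and LMA were 2.53 and 2.48, and that from MMA was 2.87, still past 2-fold.

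Omd encodes osteomodulin, or osteoadherin, a keratan sulfate proteoglycan of bone and dentin. MMA was dim at 6.16, LLS gave 31.5, LMA 57.6 and T 89.8. T was 2.65-fold above LLS (1.40 ± 0.30) and at least 3.48-fold above MMA, but only 1.61-fold above LMA (0.69 ± 0.24). All 4 signals were low, and under normexp the differences of T from LLS and MMA were 0.62 and 0.80, below 2-fold. The offset of 50 in normexp by itself shrinks differences between signals this low. The 6 bone markers were split between T and LLS, with a median of -0.17 over the 5 compared. Ibsp and Spp1, matrix proteins of bone, were at least 3.87 and at least 2.86 higher in T, Sp7 (-0.35) and Alpl (-0.61) differed by less than 2-fold, Bglap had a bound of -0.17, and Runx2 was dim in both.

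Prelp encodes a basic protein of the family that binds heparan sulfate and collagen and links basement membranes to the matrix below. Its brightest probe was dim in MMA (4.53) and LLS (5.05), gave 42.9 in LMA and reached 277 in T. T was 6.66-fold above LMA (2.73 ± 0.25) and at least 12.1-fold above LLS, and its bound against MMA was 3.42 on the log2 scale. The other 2 Prelp probes were not well above background in any tissue. One of them, also a RefSeq probe, gave 22.7 in LMA and 20.7 in T, so the Prelp difference rests on 1 of 3 probes. With the mean of all its probes Prelp in T differed by 0.62 from LLS, 0.79 from LMA and 0.45 from MMA, all below 2-fold. Under normexp these values of its brightest probe were 2.03, 1.72 and 1.93.

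Fmod encodes fibromodulin, a keratan sulfate proteoglycan abundant in tendon that controls fibril growth and collagen cross-linking. MMA gave 40.6, LLS 59.2, LMA 106 and T 70.4. The brightest tissue was LMA, not T, but by less than 2-fold over T and over LLS. Under normexp the Fmod differences from LMA were -0.30 for T and -0.34 for LLS. T and LLS differed by 0.14 ± 0.25, within the error, and T against LMA differed by -0.54 ± 0.24 and against MMA by 0.58 ± 0.28. Among 5 tendon regulators and markers, Scx (3003 for T, 11032 for LMA) and Mkx (90.2 for T, 134 for LMA) were also brightest in LMA. For Mkx the difference of T from LMA was -0.53, below 2-fold. Thbs4, a tendon marker outside these 5, was 5.41 higher in T than in LMA. Egr1 (563 for T, 131 for LMA) and Egr2 (166 for T, 28.4 for LMA) were brightest in T. Tnmd (36.7 for T, 28.6 for LMA) was dim in MMA and LLS, and T and LMA differed by 0.41, below 2-fold. Both Tnmd signals were close to the lowest well above background, 26.7 on the T array and 20.1 on the LMA array.

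**Figure D2:**
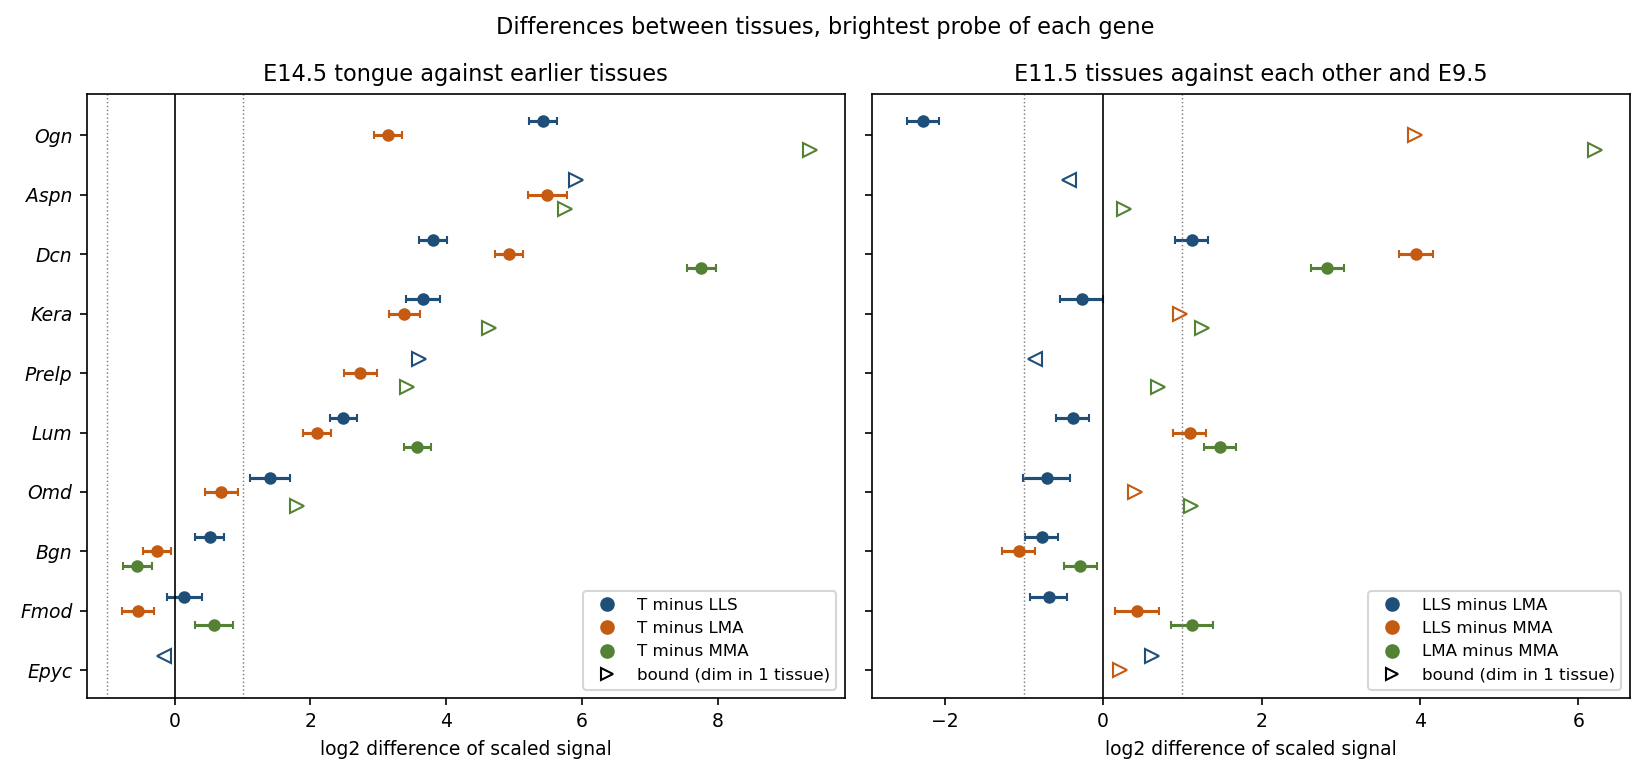
Log2 difference between tissues (x axis) for the brightest probe of each gene (rows), with T against the earlier tissues on the left and the E11.5 tissues against each other and against MMA on the right. Circles are measured differences with the scanner software's error, triangles are bounds and dotted lines mark 2-fold; in LLS against LMA, Dcn and Ogn lie beyond 2-fold on opposite sides.

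The E11.5 tissues are of the same age and differ in position, the lingual swellings against the lateral arch. The labels name LLS as lateral swellings but give its region as medial, so the axis of this comparison is taken from the tissue names. Only Dcn was at least 2-fold higher in LLS than in LMA and only Ogn was at least 2-fold lower, which makes 1 gene each way of 10 compared. Among all genes 3.62% were higher and 2.88% lower. With bounds taken at their size, the median member difference was -0.56, against 0.00 over all genes compared. Over the 7 members measured in both tissues it was -0.69, against 0.02 over all genes so measured.

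Dcn had 2134 in LLS and 1094 in LMA, a 2.17-fold difference (1.12 ± 0.20) that was 0.96 without scaling and 0.91 with scaling to the spike-in probes, just under 2-fold. Ogn went the other way, with 367 in LLS and 1978 in LMA. It was 4.85-fold lower in LLS (-2.28 ± 0.20), rank 33 from the lowest of 16174 genes. Dcn and Ogn thus stood in opposite order at the same age.

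Bgn, Fmod and Omd were lower in LLS by more than 2 errors, with differences of -0.78 ± 0.21, -0.69 ± 0.24 and -0.72 ± 0.30. All 3 are below 2-fold, and under normexp they were -0.60, -0.34 and -0.19. Omd in LLS, at 31.5, was close to the lowest signal well above background there, 21.3. By its RefSeq probe Bgn was 2.03-fold lower in LLS (-1.02 ± 0.21). Lum (-0.39 ± 0.20) and Kera (-0.27 ± 0.27) were within 2 errors of 0. Aspn and Prelp were well above background in LMA but not in LLS, and Epyc in LLS but not in LMA, with bounds of -0.43, -0.86 and 0.61. Counted by sign alone, 8 of 10 members were lower in LLS, beside 48.9% of all genes.

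Markers moved with position too. Of 5 muscle markers compared 4 were at least 2-fold lower in LLS than in LMA, as were 3 of 4 endothelial markers. Mesenchyme markers had a median difference of -0.41 over 7 genes, with 1 at least 2-fold higher (Postn, 1.51) and 1 lower (Prrx1, -1.77). Scx was lower in LLS by -1.73. Epithelial markers went the other way, with 2 of 5 at least 2-fold higher in LLS, Cdh1 (2.91) and Epcam (2.39), 0 lower and a median of 0.50.

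More members were detected after E9.5. Of the 10 genes 4, Dcn, Bgn, Lum and Fmod, were already well above background at MMA, 8 were at LLS, 9 at LMA and 9 at T. Over all genes the shares were 58.4%, 60.9%, 63.7% and 61.8% in the same order. In LLS 3 genes were at least 2-fold higher than in MMA and 1 was lower, of 8 compared, beside 9.68% and 5.59% of all genes. In LMA 6 were higher and 0 lower, of 9 compared, beside 10.5% and 7.17% of all genes.

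Dcn led in LLS, 15.4-fold above MMA (3.95 ± 0.21), rank 35 of 15357 genes. In LMA it was 7.12-fold above MMA (2.83 ± 0.21). Under normexp the LLS value was 3.36. Ogn was at least 15.3-fold above MMA in LLS (3.94) and at least 74.2-fold in LMA (6.21), and 2.30 and 4.40 under normexp. Lum was 2.13-fold above MMA in LLS (1.09 ± 0.20) and 2.79-fold in LMA (1.48 ± 0.20).

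Fmod was 2.17-fold above MMA in LMA (1.12 ± 0.26), and Kera and Omd were at least 2.37-fold and at least 2.16-fold above it. Under normexp these 3 values were 0.47, 0.39 and 0.36, all below 2-fold. The signals behind them are of the order of the offset of 50, which by itself shrinks such differences. Bgn was 2.09-fold lower in LLS than in MMA (-1.07 ± 0.21), but by -0.80 ± 0.22 on its RefSeq probe, which is under 2-fold. The 3 genes Dcn, Lum and Ogn exceeded MMA at least 2-fold in both E11.5 tissues, and in T exceeded both of those at least 2-fold, a pattern found in 1.42% of all genes. Among the members compared, none was at least 2-fold lower in T than in any earlier tissue.

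Most of these genes sit side by side in the genome. In the RefSeq annotation of GRCm38.p6, Dcn, Lum, Kera and Epyc lie on chromosome 10 within 202 kb (chr10:97479500-97681908). Aspn, Omd and Ogn lie on chromosome 13 within 80.1 kb (chr13:49544443-49624501), and Prelp and Fmod on chromosome 1 within 138 kb (chr1:133910304-134048280). No other protein-coding gene of that annotation lies between the members of a cluster. Bgn stands alone on chromosome X (chrX:73483601-73495936).

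Members of 1 cluster did not all move alike. On chromosome 10, Dcn, Lum and Kera were 3.81, 2.49 and 3.65 higher in T than in LLS, while Epyc next to Kera was dim in T. On chromosome 13, Ogn (5.42) and Aspn (at least 5.92) were much higher, and Omd between them was 1.40 higher. On chromosome 1, Prelp was at least 3.59 higher and Fmod differed by 0.14.

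The flanking genes were also read. On chromosome 10, Ccer1 beyond Epyc was not well above background in any tissue, and the gene before Dcn was not measured here. Ecm2, a matrix protein gene of the same wider family before Aspn, gave 58.3 in T, was dim in LLS (4.52), and was at least 2.54-fold higher in T. Nol8, a nucleolar protein gene after Ogn, differed by -0.21. Optc, encoding opticin of the eye, lies beside Prelp and was not well above background in any tissue. Btg2, an antiproliferative gene beside Fmod, was 1.59 higher in T. Of the genes beside Bgn, Haus7 differed by -0.73 and Atp2b3 was not well above background in any tissue.

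**Figure D3:**
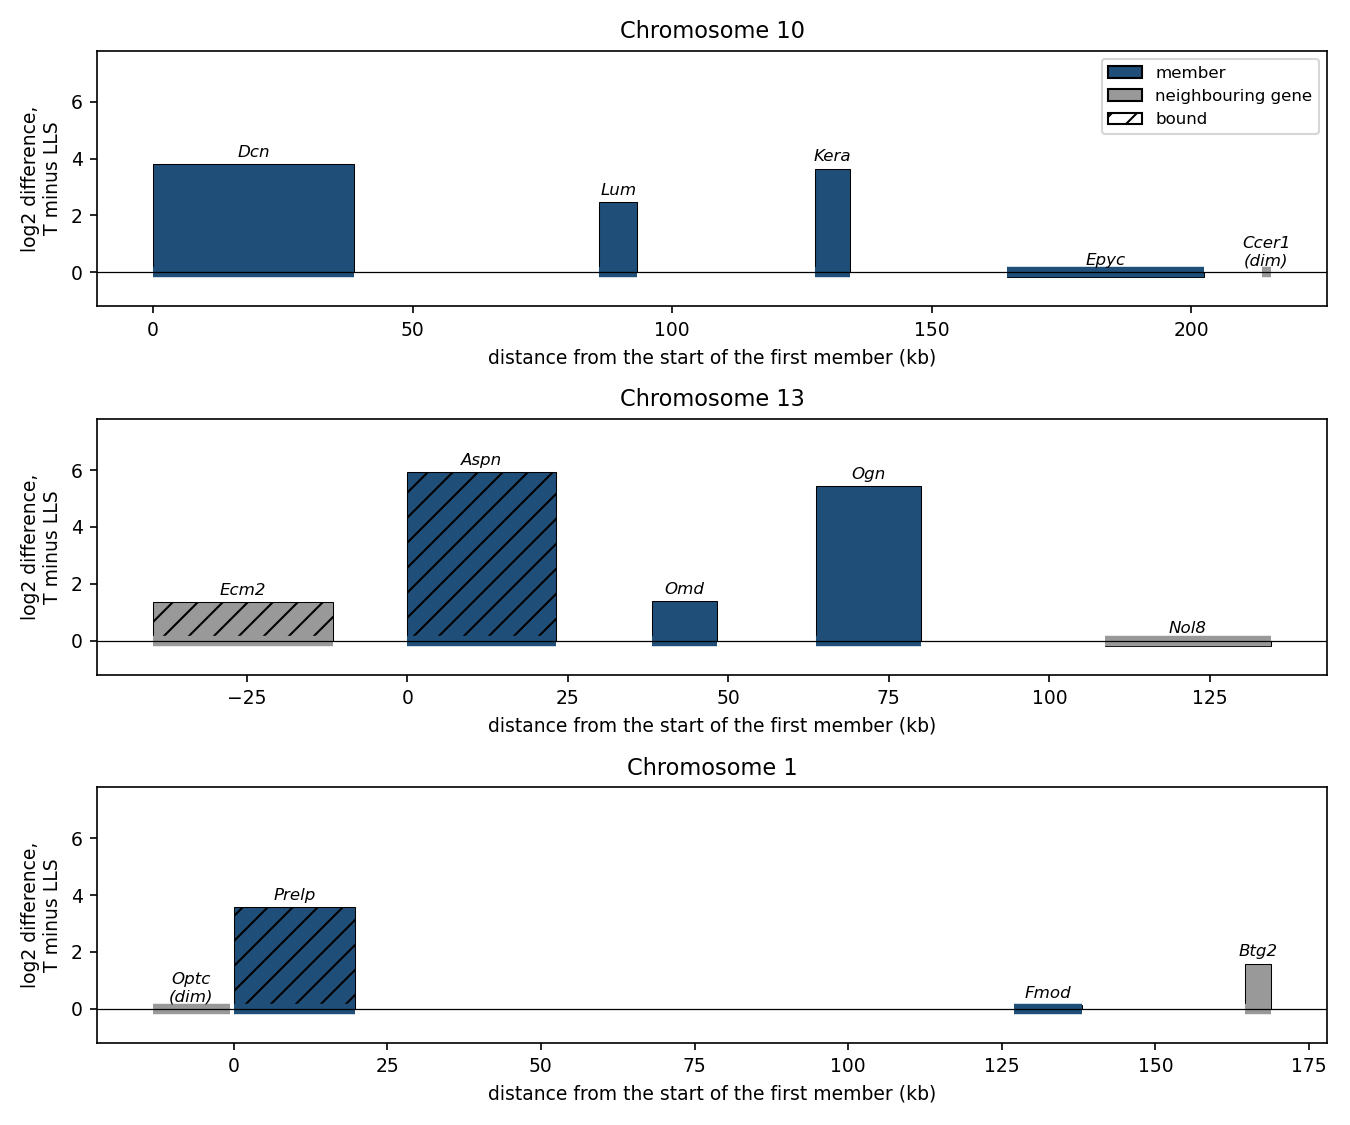
Log2 difference T minus LLS (y axis, bar height) for the members on chromosomes 10, 13 and 1 and their flanking genes. Genes are drawn at their distance in kb from the start of the first member of the cluster (x axis). Bgn on chromosome X, with its flanking genes, and the gene before Dcn are not drawn. Hatched bars are bounds and "dim" marks genes not well above background in either tissue; neighbours such as Kera and Epyc, or Prelp and Fmod, differ from each other.

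Promoter sequences are shown for 4 genes that were higher in T and for Bgn, so that they can be read beside these values. The brightest Bgn probe stayed within 2-fold between T and each earlier tissue, but its RefSeq probe was 2.59-fold higher in T than in LLS. RefSeq promoters of GRCm38.p6, from 250 bases before to 50 after a start, were found for 8 of the 10 genes as 9 sequences, and Dcn and Lum had none. The Kera and Prelp windows belong to starts inside the annotated genes, which span chr10:97606962-97613688 and chr1:133910304-133930102, not to the outermost start of each gene. Capitals mark matches on either strand to any of the 7 motifs spelled out after the sequences, and overlapping matches are joined.
Aspn promoter, chr13:49544193-49544492, plus strand: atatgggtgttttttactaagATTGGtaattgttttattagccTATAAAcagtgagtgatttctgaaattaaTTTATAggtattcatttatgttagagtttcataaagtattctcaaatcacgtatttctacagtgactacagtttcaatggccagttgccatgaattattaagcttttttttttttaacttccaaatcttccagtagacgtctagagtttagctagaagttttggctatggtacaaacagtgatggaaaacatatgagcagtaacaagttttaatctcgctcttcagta
Ogn promoter, chr13:49607765-49608064, plus strand: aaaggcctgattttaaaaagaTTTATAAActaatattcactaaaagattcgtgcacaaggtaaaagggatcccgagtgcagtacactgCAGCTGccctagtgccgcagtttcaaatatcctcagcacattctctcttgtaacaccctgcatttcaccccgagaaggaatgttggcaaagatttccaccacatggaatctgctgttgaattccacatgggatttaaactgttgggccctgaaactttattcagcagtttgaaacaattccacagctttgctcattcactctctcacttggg
Kera promoter, chr10:97606955-97607254, plus strand: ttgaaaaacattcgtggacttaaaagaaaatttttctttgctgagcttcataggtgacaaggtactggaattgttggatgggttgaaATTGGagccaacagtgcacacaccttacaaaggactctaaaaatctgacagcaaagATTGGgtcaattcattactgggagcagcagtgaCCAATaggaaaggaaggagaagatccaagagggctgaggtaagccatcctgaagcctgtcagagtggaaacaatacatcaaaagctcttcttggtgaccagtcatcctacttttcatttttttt
Prelp promoter, chr1:133921352-133921651, minus strand: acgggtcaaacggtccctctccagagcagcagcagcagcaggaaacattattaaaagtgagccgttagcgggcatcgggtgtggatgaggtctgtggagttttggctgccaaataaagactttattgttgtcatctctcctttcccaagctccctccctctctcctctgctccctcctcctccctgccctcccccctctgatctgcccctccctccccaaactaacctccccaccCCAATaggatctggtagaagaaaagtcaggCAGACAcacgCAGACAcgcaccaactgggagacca
Bgn promoter, chrX:73483351-73483650, plus strand: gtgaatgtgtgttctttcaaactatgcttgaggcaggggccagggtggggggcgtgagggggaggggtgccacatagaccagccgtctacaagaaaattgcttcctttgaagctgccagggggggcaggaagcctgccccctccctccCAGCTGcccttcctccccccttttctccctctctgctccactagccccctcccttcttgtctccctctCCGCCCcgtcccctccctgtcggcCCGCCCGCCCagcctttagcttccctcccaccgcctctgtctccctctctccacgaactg

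TATAAA, the letters of the TATA box, was in the windows of Aspn and Ogn, 2 of the 9 member promoters. It was in 13.6% of 32851 mouse promoters of this length. Relative to the transcription start, the matches lay at -207 and -178 for Aspn and at -227 and -229 for Ogn. All matches here are of letters only, and whether any works as a promoter element was not tested. CCAAT was in 4 of 9, those of Aspn, Kera, Prelp and Fmod, and in 37.4% of all. The Fmod match lay after the start, at position 35. GGGCGG, the GC box, was in 1 of 9, that of Bgn, and in 35.7% of all. CAGCTG was in those of Ogn and Bgn (16.3% of all), CATCTG in that of Fmod (17.2%), CAGACA in that of Prelp (21.0%) and TGANTCA in 0 of 9 (7.81%). The Bgn window held 63.7% G and C bases, against 31% for Aspn, 42.3% for Ogn, 41% for Kera, 55.3% for Prelp and a median of 52.7% over all promoters. Windows not shown held 51% for Fmod, 37.7% for Omd, and 40.3% and 32.3% for Epyc. Whether the share of G and C bases goes with the signals was not tested. None of these motifs was in all 4 of the windows shown for genes higher in T.

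The wider family was read through 8 further genes. Podnl1, a podocan relative, was not well above background in the 3 earlier tissues and gave 616 in T, at least 26.9-fold above LLS. Podn, podocan, gave 122 in T and was likewise dim earlier, at least 5.32-fold above LLS. Chadl (0.85) and Tsku, tsukushi (-0.49), differed from LLS by less than 2-fold. Optc, Chad and Nyx were not well above background anywhere. Of these 8 genes 5 could be compared, and 3 of these were at least 2-fold higher in T.

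The collagens that these proteoglycans bind were mixed. Of 14 genes for fibril collagens and collagens of the fibril surface, 7 were at least 2-fold higher in T than in LLS and 1 was lower, with a median of 0.93. The highest were Col6a1 (2.97), Col6a2 (2.94, other probes 0.67 to 1.89) and Col14a1 (2.57), which lie on or between fibrils, and the lowest was Col2a1 of cartilage (-1.82). Of 14 fibril-associated glycoproteins 9 were higher and 0 lower, and their median was 1.29. Thbs4, a thrombospondin of tendon and muscle, was 4.50 higher, Thbs2 3.17 higher and Dpt, dermatopontin, at least 3.28 higher.

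Among 10 collagen processing and cross-linking genes compared, 4 were higher and 1 lower (median 0.37). Lox, lysyl oxidase, was 3.60 higher, and Adamts14, a procollagen protease, 2.92 higher. Adamts2 was 1.99 higher by its brightest probe and -0.48 by another. Pcolce2, a procollagen protease enhancer, was the lowest at -1.73.

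Genes that build the sugar chains are read here beside the 12.8% of all genes that were at least 2-fold higher in T than in LLS. Of 18 genes for the linker and for chondroitin and dermatan sulfate, 3 were higher and 0 lower (median 0.09). These 3 were Csgalnact1 (3.36), which starts chondroitin chains, Ust (1.62) and Chst15 (1.39), both sulfotransferases. Of 6 keratan sulfate genes compared 1, the sulfotransferase Chst5 (2.64), was higher, with a median of 0.29.

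Among 12 TGF-beta and BMP ligands, receptors and latency proteins, 7 were higher and 1 was lower (median 1.22). Ltbp2 (at least 3.36), a protein of elastic microfibrils, and Ltbp4 (3.08), which binds latent TGF-beta in the matrix, were highest and Bmp4 (-1.25) lowest. Of 10 other receptors compared, 2 were higher, Met by 1.47 and Egfr by just over 1 on the log2 scale, and the median was 0.11. Among 13 other proteoglycans and link proteins 1 was higher, the transmembrane proteoglycan Cspg4 (2.84), and 4 were lower, down to Acan, aggrecan (-1.37), and the median was -0.31. Acan in T, at 30.4, was close to the lowest signal well above background on that array, 26.7. Also among these 4, Spock3 was -1.11 by its brightest probe but 2.11 by another, and Hapln1 had a bound of -1.09. Of 9 syndecans and glypicans 2 were higher and 2 lower (median -0.04).

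**Figure D4:**
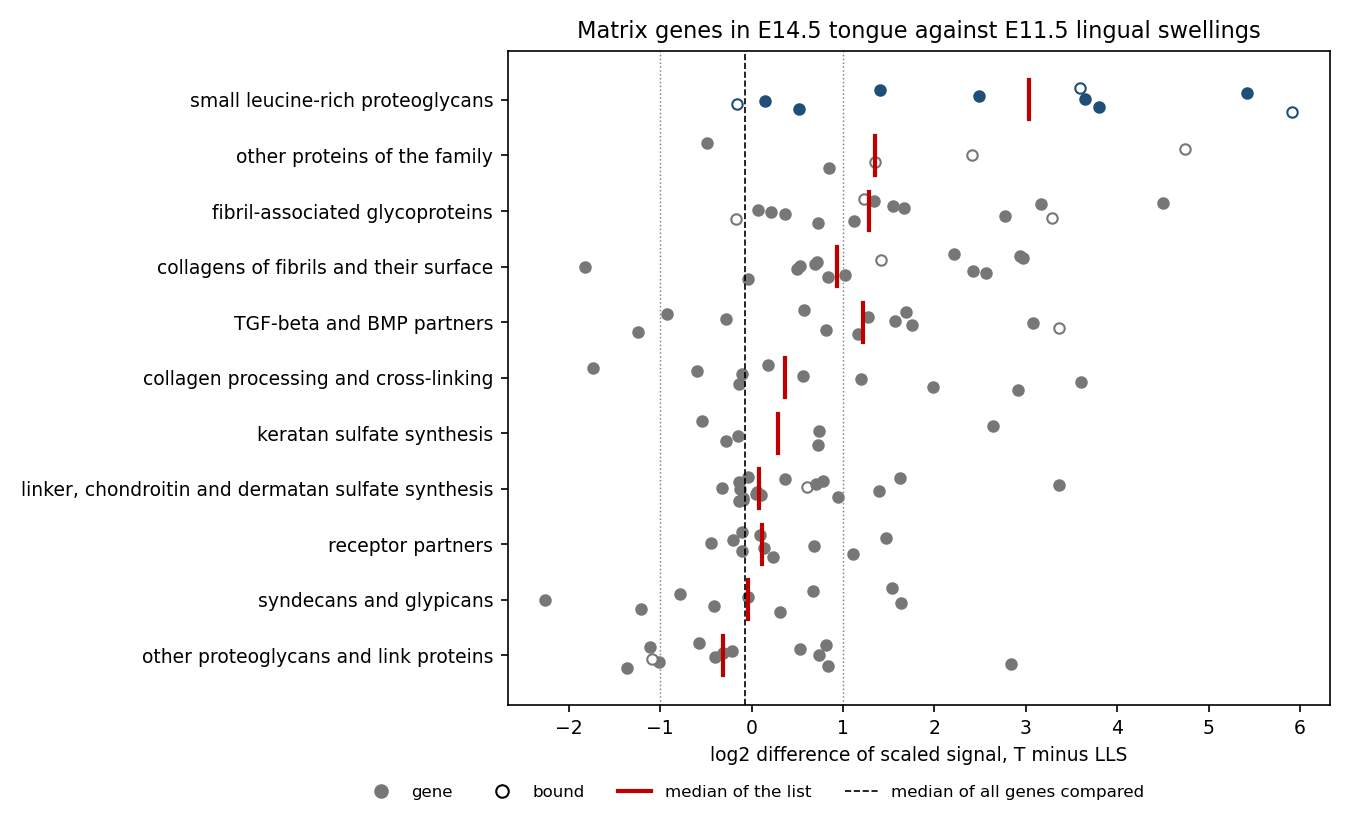
Log2 difference T minus LLS (x axis) of each gene, by list (rows), with bounds as open points, the median of each list as a red bar and the median of all genes compared as a dashed line. With bounds taken at their size, the small leucine-rich proteoglycans had a median of 3.04, fibril-associated glycoproteins 1.29, collagens 0.93 and chondroitin and dermatan sulfate genes 0.09.

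Cell type markers moved with this comparison as well. All 6 muscle markers were higher in T than in LLS, with a median of 6.96. Mesenchyme markers were split, with 2 higher and 3 lower of 7. Col1a1 (2.42) and Postn (1.67) were higher, while Twist1 (-2.06), Prrx1 (-1.82) and Pdgfra (-1.14) were lower. Of 5 epithelial markers 2, the keratins Krt5 (5.34) and Krt14 (5.36), and 2 of 3 macrophage markers were higher, 0 of 4 endothelial markers changed by 2-fold, and 3 of 3 primitive and general erythroid markers were lower. Summed scaled signals were 363 in T against 20.1 in LLS for the epithelial list, 4.40 against 2.48 for the macrophage list, 4.31 against 5.09 for the endothelial list and 3.71 against 419 for the erythroid list. Every marker of these 4 lists was well above background in both tissues. Their part in the family's values was not tested.

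Within the family the profiles were unlike. For the 4 members well above background everywhere, likeness was the root-mean-square distance of mean-centred log2 signals over the 4 tissues. Bgn and Fmod were nearest to each other (0.60), Lum was nearest to Fmod (1.18) and Dcn to Lum (1.57). The 5 genes nearest to the mean profile of these 4, of 12986, were Prrt1 (0.07), Plaur (0.07), Btg2 (0.10), Rb1 (0.13) and Arl4a (0.14). The mean profile lay closest to Lum (0.30) and far from Dcn (1.80), so it describes no member well except Lum.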

How the data were processed

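RNA of 4 pooled tissues was measured on 4 single-colour Agilent arrays, all on 1 slide, and the precision is limited by that number. The deposited scanner files hold intensity, which the authors obtained, per the file headers, from Agilent Feature Extraction 10.7.1.1 (9.5.1.1 in the submitters' processing notes), with positions on mm9. A deposited table of intensity, to judge by its values already normalized between arrays in a way no header states, served as an alternative.

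Flagged and control spots were left out and spots of a probe averaged. For each gene the probe with the highest mean signal was used, and log2 signal minus the 75th percentile of the array was compared. Values not well above background were raised to the lowest well-above-background value. With 1 array per tissue no test, SD or p-value was computed. Probes printed 10 times (282) gave an SD of 0.080 to 0.083 for the log2 difference of single spots. List genes named are at most the 3 highest and 3 lowest in T minus LLS, beside all members, other family genes, flanking genes and the 5 nearest profiles. The 21 lists held 184 entries, all found. The members and lists were chosen with earlier results of these data known. Alternatives were other background corrections, scalings, filters and probe choices, and 1, the RefSeq probe, was added after seeing the data. Counting was tested on simulated data. Python 3.11.15, pandas 2.3.3, R 4.3.3 and limma 3.58.1 were used.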

Additional observations from a re-analysis of the deposited data

How the results depend on the processing

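The 12 counts of members at least 2-fold higher or lower were recomputed under 12 alternatives, and 125 of 144 values stayed within 1.5 times the reported count. For T against LLS, the count lower was 1 in place of 0 with no filter and no floor (Epyc). For LLS against LMA, the count higher was 2 in place of 1 with no filter, and 0 without scaling, with spike-in scaling and at 4-fold. The count lower was 3 in place of 1 with no filter, and 2 without scaling, with spike-in scaling and with the RefSeq probe. For LLS against MMA, the count higher was 6 in place of 3 with no filter. The count lower, Bgn alone, was 0 in place of 1 with normexp, without scaling, with the 75th percentile over probes well above background on all arrays, with spike-in scaling, with the mean of all probes, at 4-fold and with the RefSeq probe. For LMA against MMA, the count higher was 3 in place of 6 with normexp and 2 at 4-fold. Of 601 recomputed differences of single members 594 kept their sign and 562 their side of 2-fold, and no difference past 2-fold changed sign.

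Scaling moved the median of all genes. Spike-in scaling shifted it by 0.21 for T against LLS, 0.31 for T against MMA and -0.20 for LLS against LMA, and scaling to the median of all probes by -0.27 for T against MMA. With spike-in scaling 16.1% of all genes were at least 2-fold higher and 3.78% lower in T than in LLS, against 12.8% and 6.03% with 75th-percentile scaling. The same scaling gave 23.9% and 7.51% for T against MMA (18.3% and 13.8%), 2.67% and 4.84% for LLS against LMA (3.62% and 2.88%) and 15.3% and 3.94% for LMA against MMA (10.5% and 7.17%). Scaling to the median gave 10.8% and 9.49% for T against LLS, 14.8% and 21.9% for T against MMA and 8.25% and 11.2% for LMA against MMA. The cause of these shifts was not tested. No paired analysis was possible because each tissue had a single array. Signals near background, as for Epyc, Omd, Prelp and Aspn in early tissues, limit the differences to bounds.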
